A study of Homo sapiens with 74 samples.

Results

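The response of the transcriptome to loss of DOT1L was compared between 2 established lines of human erythroleukaemia, K562 and HEL. The quantity described here is a difference of differences: the log2 change after DOT1L knockdown in HEL minus the log2 change after DOT1L knockout in K562. It was estimated from 9 of the 13 RNA-seq libraries among the 74 samples of the series. HEL had 2 control libraries and 2 DOT1L knockdown (KD) libraries. K562 had 2 wild-type control libraries and 3 libraries of the DOT1L-/- genotype (KO). Another K562 control column held the same counts as the second and was left out. Neither how the knockdown was made nor how many clones the knockout stands for is given in the sources used here. Of 28131 genes in each count table, 15367 had enough counts to be tested. The 11591 genes that had enough counts in each line on its own are called measured in both lines.

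DOT1L is the enzyme that methylates lysine 79 of histone H3, a mark of the first part of transcribed genes. It works in a complex with AF9, ENL, AF10 and AF17, whose YEATS-domain members read acylated histones. Erythroleukaemia lines carry features of red cell precursors and of megakaryocytes, the cells that shed platelets, and the balance between these fates is set by factors such as GATA1, KLF1, RUNX1 and MEIS1.

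Total counts were between 12151495 and 12811688 in HEL and between 20403057 and 29236703 in K562. Levels are given as CPM, the count of a gene relative to its library's total, with TMM factors taken over all 9 libraries. The lines come from separately counted tables, so levels set side by side across lines are descriptions. A library in which a gene had no count could still have held up to 3, which corresponds to 0.0990 to 0.254 CPM across the libraries and covers counting error only. Replicates were close, with a biological coefficient of variation of 1.79% in HEL and 5.87% in K562. The lines matched their labels in part. Erythroid markers were present in both, with GATA1 at 269 ± 11.1 CPM (SD, n = 2) in K562 controls and 314 ± 3.42 CPM (SD, n = 2) in HEL controls. Of the megakaryocytic markers, GP9 was at 187 ± 16.2 CPM in HEL controls (SD, n = 2), and GP9 and PF4 had no count in the K562 controls. ITGA2B and ITGB3 did have counts in the K562 controls, at 4.78 ± 1.37 and 3.69 ± 0.418 CPM (SD, n = 2). Markers of other cell types summed to between 228 and 229 CPM in K562 controls, 140 and 148 CPM in K562 KO, 316 and 337 CPM in HEL controls and 563 and 567 CPM in HEL KD. Only 13 of the 28 listed markers were tested. Without EPCAM and PECAM1 the sums were between 83.6 and 84.8, 38.8 and 40.9, 24.2 and 29.5, and 19.0 and 22.8 CPM in the same order, and their part in the results was not tested.

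**Figure D1:**
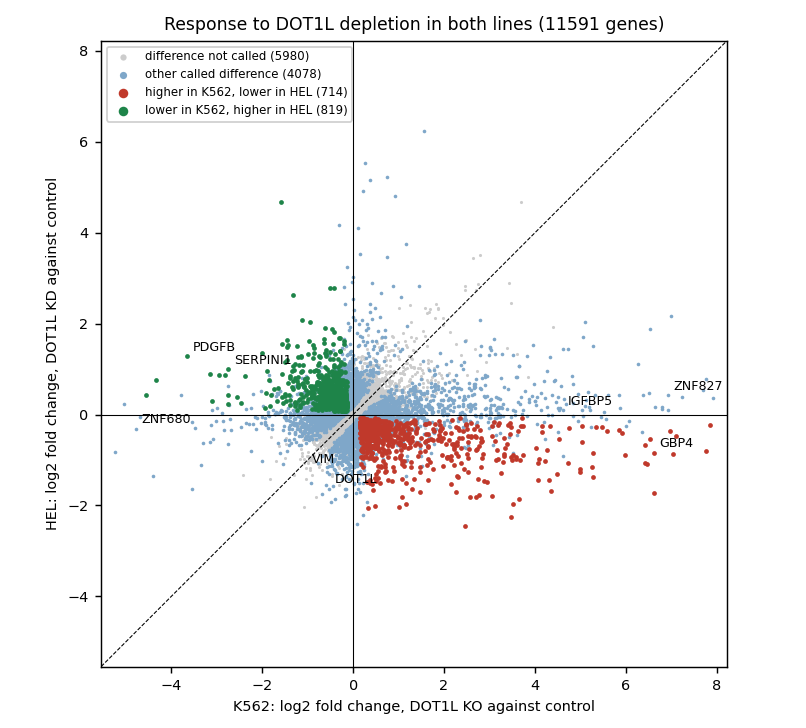
Log2 fold change after DOT1L depletion in K562 (horizontal axis) against HEL (vertical axis), 1 point for each of the 11591 genes measured in both lines. The dashed line marks equal change. Genes called in opposite directions fill the lower right (714 genes) and upper left (819 genes), and the points reach farther along the K562 axis on the right-hand side.

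DOT1L itself was lower in both depleted lines. In K562 it was at 266 and 251 CPM in the controls and at 182, 172 and 181 CPM in the KO, a log2 change of -0.53 ± 0.05 (SE). In HEL it was at 101 and 89.9 CPM in the controls and at 30.2 and 31.3 CPM in the KD, a change of -1.63 ± 0.06. The groups did not overlap in either line, and the fall was larger in HEL by 1.10 on the log2 scale (difference -1.10 ± 0.09, adjusted p = 5.1e-09 by the edgeR quasi-likelihood fit, adjusted by the Benjamini-Hochberg method over all genes as is every adjusted p given here). These are RNA levels and do not measure the protein. YEATS4, a YEATS-domain reader of other chromatin complexes, rose in K562 (0.38 ± 0.08) and fell in HEL (-0.26 ± 0.06). Of the complex members, MLLT1, which encodes ENL, rose in HEL (0.41 ± 0.05) and had a K562 change of 0.02 ± 0.05 (adjusted p = 0.73).

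The lines responded differently at many genes. The difference was called at an adjusted p under 0.05 for 5980 of 15367 genes (38.9%), with the HEL change above the K562 change for 3039 and below it for 2941. Among the genes measured in both lines it was called for 5611 (48.4%), with HEL above for 2905 (25.1%) and below for 2706 (23.3%). Most of these differences were modest, with a median absolute size of 0.62 (log2) among the called genes and 0.35 among all genes measured in both. At an absolute difference of at least 1 there were 1581 called genes, of which 612 had HEL above and 969 had HEL below. Calls were more frequent at high levels: 39.0% of the 2898 genes with the lowest mean CPM and 55.6% of the 2898 with the highest. In each line's own comparison, K562 had 6111 (52.7%), of which 25.6% of all genes were higher in the KO and 27.2% lower. HEL had 6526 (56.3%), with 29% higher in the KD and 27.3% lower.

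The called genes fall into 3 kinds. In the first, 714 genes (6.16%) were higher in K562 KO and lower in HEL KD, and 819 genes (7.07%) were lower in K562 KO and higher in HEL KD. With a change of at least 0.5 in each line, 219 and 148 of them remained. In the second, both lines changed the same way by different amounts: 292 genes rose more in K562, 224 fell more in K562, 105 rose more in HEL and 136 fell more in HEL. In the third, 1 line passed the test and the other did not: 752 genes rose and 830 fell in K562, and 879 rose and 781 fell in HEL. A further 79 genes had a called difference with neither line called. Against these stood 1287 genes called in the same direction in both lines whose difference was not called. Of all genes called in the same direction in both, 113 changed by at least 1 in each line.

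Knockout and knockdown, fragment and read counting, the culture medium (DMEM in K562, RPMI-1640 in HEL) and the sequencing lane named in the labels all go with the cell line, so their parts in these differences cannot be told apart from that of the line.

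Promoter sequences of 4 of the genes described in the next paragraphs, 1 for each kind of pattern, are shown so that the response can be read beside the regulatory sequence. They run from 250 bases before to 50 after a RefSeq start on GRCh38.p14, 5′ to 3′ on the gene's strand. Capitals mark every match, on either strand, to 5 short motifs. They are GATAA, the core bound by the GATA family, and TATAAA, the box near the start of some promoters. The others are CCAAT, the core bound by factors such as NF-Y, then CACCC, the core bound by KLF factors, and TGTGGT, the core bound by RUNX factors. SERPINE2 stands for genes higher in K562 KO and lower in HEL KD, SERPINI1 for the reverse, IGFBP5 for genes changed the same way by unequal amounts and TEK for genes called in 1 line. Each is the first gene of its kind, in order of the size of the difference, that the RefSeq promoter table holds. The table gives 2 starts for SERPINE2, 679 and 7841 bases inside the 5′ end of the gene as counted, and both windows are shown. It gives 2 overlapping windows for TEK, of which the one nearer the 5′ end is shown. Gene counts do not tell which start was used.
SERPINE2, chr2:224038591-224038890, minus strand: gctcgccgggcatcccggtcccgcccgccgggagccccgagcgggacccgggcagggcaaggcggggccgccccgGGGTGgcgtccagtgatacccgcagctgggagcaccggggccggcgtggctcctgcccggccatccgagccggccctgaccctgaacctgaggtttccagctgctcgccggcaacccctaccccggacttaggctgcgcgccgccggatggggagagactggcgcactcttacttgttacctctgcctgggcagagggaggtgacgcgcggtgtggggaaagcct
SERPINE2 internal start, chr2:224031429-224031728, minus strand: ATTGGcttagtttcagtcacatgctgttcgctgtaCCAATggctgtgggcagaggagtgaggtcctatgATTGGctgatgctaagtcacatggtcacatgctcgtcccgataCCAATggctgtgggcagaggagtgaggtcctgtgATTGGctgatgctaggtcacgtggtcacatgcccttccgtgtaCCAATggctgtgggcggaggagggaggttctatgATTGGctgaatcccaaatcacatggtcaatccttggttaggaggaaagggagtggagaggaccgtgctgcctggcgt
SERPINI1, chr3:167735471-167735770, plus strand: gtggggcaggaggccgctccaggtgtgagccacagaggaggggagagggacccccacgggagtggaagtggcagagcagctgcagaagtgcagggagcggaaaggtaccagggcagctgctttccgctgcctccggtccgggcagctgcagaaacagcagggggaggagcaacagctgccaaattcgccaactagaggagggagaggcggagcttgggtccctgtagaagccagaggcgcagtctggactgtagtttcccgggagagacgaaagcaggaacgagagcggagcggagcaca
IGFBP5, chr2:216695500-216695799, minus strand: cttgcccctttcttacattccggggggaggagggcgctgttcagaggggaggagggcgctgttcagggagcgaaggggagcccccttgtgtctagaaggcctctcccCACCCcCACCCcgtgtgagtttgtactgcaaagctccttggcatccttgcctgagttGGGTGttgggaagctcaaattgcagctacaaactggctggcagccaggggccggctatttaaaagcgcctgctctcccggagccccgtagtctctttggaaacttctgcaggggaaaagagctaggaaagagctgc
TEK, chr9:27108975-27109274, plus strand: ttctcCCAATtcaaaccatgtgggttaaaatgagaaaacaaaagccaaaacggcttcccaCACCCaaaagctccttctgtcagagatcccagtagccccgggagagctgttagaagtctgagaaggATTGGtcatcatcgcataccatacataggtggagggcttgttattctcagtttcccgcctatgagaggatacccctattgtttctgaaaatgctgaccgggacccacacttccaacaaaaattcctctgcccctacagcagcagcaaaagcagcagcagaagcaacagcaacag

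The window of the internal SERPINE2 start held 7 matches to CCAAT, alternating between the strands, in a repeated block: 4 of the 5 gaps between a match and the next match on the same strand were 77 bases. This spacing was looked at after the sequence had been read. The window nearer the gene's 5′ end held none, and 1 match to CACCC (59.9% of promoters held as many). Of the 35116 promoters of 300 bases in the table, 8 held 7 or more matches to CCAAT (0.0228%), and 34.6% held at least 1. IGFBP5 held 3 matches to CACCC, a number reached by 11.2% of promoters. TEK held 2 matches to CCAAT (10.8% of promoters held as many) and 1 to CACCC. No match to the 5 motifs was in the SERPINI1 window, and none of the 5 windows matched GATAA (held by 22.7% of promoters), the TATAAA box (held by 11.5%) or the RUNX core TGTGGT (held by 13.1%). A match is a description of the letters and says nothing of binding.

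The 6 genes named for rising in K562 KO and falling in HEL KD were MGLL, SERPINE2, GBP4, SUCNR1, RASGRP3 and THBS1, all near silent in K562 controls. MGLL (chr3:127689062-127823250, minus strand) encodes monoacylglycerol lipase, which ends the signal of an endocannabinoid. It was at 0.0917 and 0.185 CPM in K562 controls, 12.4, 13.3 and 12.4 CPM in K562 KO, 13.3 and 13.8 CPM in HEL controls and 6.11 and 6.69 CPM in HEL KD. K562 thus moved from near silence to a level close to that of HEL controls. HEL fell by 1.08 on the log2 scale (± 0.15, SE). No library overlapped between the groups of a line, which was required of all genes named for opposite changes. The K562 rise rests on 6 counts in all controls against 950 in the KO, a ratio of 92.4 with a 95% counting interval from 42.3 to 253.

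SERPINE2 (chr2:223975048-224039319, minus strand) encodes a secreted inhibitor of thrombin and other serine proteases. Its levels were 0.0459 and 0.139 CPM in K562 controls and 7.80, 9.27 and 7.98 CPM in the KO. In HEL they were 57.2 and 54.1 CPM in controls and 26.7 and 26.3 CPM in the KD. The fitted difference was -7.48 ± 0.30. It moved between -8.39 and -6.90 when one library was left out, at the extremes without K562 control 2 and without K562 control 1. The K562 controls held 4 counts in all, and the K562 ratio was 91.7 (95% counting interval from 35.6 to 337).

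GBP4, an interferon-induced guanylate-binding protein, was at 0.321 and 0.0927 CPM in K562 controls and 21.5, 21.5 and 19.3 CPM in the KO. HEL controls had 195 CPM each and the KD had 117 and 101 CPM. The difference was -7.44 ± 0.23, and it ranged from -8.52 without K562 control 1 to -6.82 without K562 control 2. SUCNR1, the cell surface receptor for succinate, was at 0.275 and 0.232 CPM in K562 controls and 13.3, 18.3 and 17.0 CPM in the KO, against 304 CPM in each HEL control and 167 and 163 CPM in the KD (difference -6.85 ± 0.24). RASGRP3, a nucleotide exchange factor that activates Ras proteins, was at 0.138 and 0.278 CPM in K562 controls and 7.88, 9.27 and 7.33 CPM in the KO. In HEL it fell from 82.5 and 79.7 CPM to 32.6 and 29.8 CPM (difference -6.64 ± 0.27). THBS1, the platelet matrix protein thrombospondin 1, went from 0.275 and 0.556 CPM to 17.6, 15.8 and 14.3 CPM in K562 and from 125 and 129 CPM to 62.8 and 51.4 CPM in HEL (difference -6.39 ± 0.23). In all 6 genes the mean of K562 KO was below the mean of HEL controls.

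Some genes of this kind were near silent in K562 controls. Of the 714 genes, 84 had a mean under 10 counts in K562 controls and passed the K562 filter through the KO libraries alone, compared with 343 of all 11591 genes. The same held for 50 of the 292 genes that rose more in K562 and for 100 of the 752 that rose in K562 with HEL not called. The KO libraries let such genes in only if they were higher there, so their K562 rise follows from the filter. This applies to MGLL, SERPINE2, GBP4, SUCNR1, RASGRP3 and THBS1 above and to ZNF827, TEK, SYNE1 and CCNJL below. In the same way, ZNF680 and ZNF724 below passed the K562 filter through the controls alone, so their K562 fall follows from the filter. C17orf99 below passed the HEL filter through the KD libraries alone, so its HEL rise does too. Among the 10976 genes with at least 10 counts in both or neither group of each line, the difference was called for 5247 (2808 with HEL above, 2439 with HEL below), and 622 of the 714 genes were among them.

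**Figure D2:**
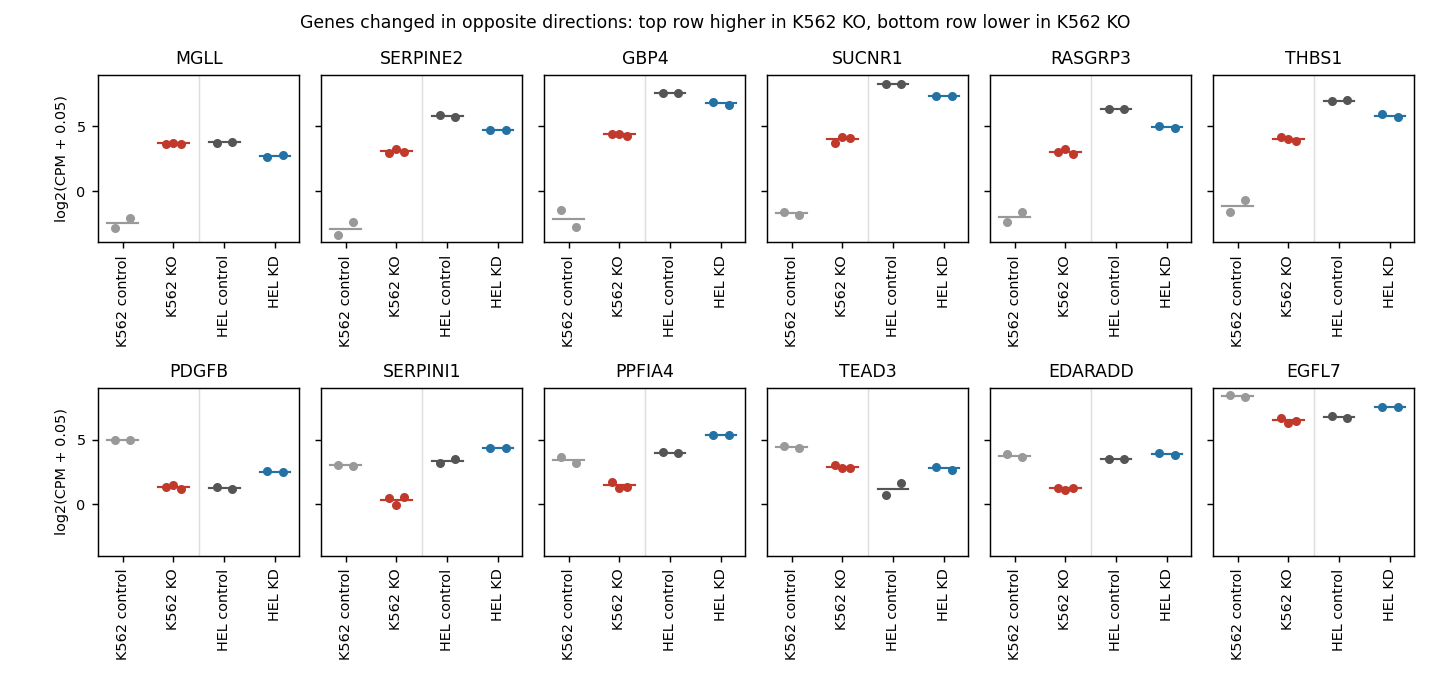
Level of the 6 genes with the largest difference in each opposite direction among those with at least 5 CPM, as log2(CPM + 0.05), in each library (points) with the group mean (line). In the top row K562 KO libraries lie above K562 controls and HEL KD libraries below HEL controls. The bottom row shows the reverse. Libraries that do not overlap between the groups of a line were a condition for choosing these genes.

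The 6 genes named for the reverse pattern were above the floor in all groups. PDGFB (chr22:39223359-39245055, minus strand) encodes the B chain of platelet-derived growth factor. It was at 32.0 and 31.8 CPM in K562 controls and 2.49, 2.80 and 2.23 CPM in K562 KO, a log2 change of -3.65 ± 0.11. In HEL it rose from 2.48 and 2.20 CPM to 5.78 and 5.68 CPM, a change of 1.29 ± 0.23. The difference was 4.94 ± 0.23 (adjusted p = 5.38e-13), and the K562 KO level lay close to that of HEL controls.

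SERPINI1, which encodes neuroserpin, an inhibitor of tissue plasminogen activator, fell in K562 from 8.35 and 7.83 CPM to 1.34, 0.924 and 1.44 CPM and rose in HEL from 8.92 and 11.6 CPM to 20.7 and 20.5 CPM (difference 3.75 ± 0.23). The controls of both lines started near each other. PPFIA4, a liprin scaffold protein, fell from 12.6 and 9.27 CPM to 3.30, 2.34 and 2.55 CPM in K562 and rose from 16.2 and 15.3 CPM to 40.0 and 40.8 CPM in HEL (difference 3.37 ± 0.20). TEAD3, a transcription factor that works with YAP and TAZ, changed in the same directions. It fell from 22.7 and 20.7 CPM to 7.97, 7.06 and 6.82 CPM in K562. In HEL it rose from 1.57 and 3.10 CPM to 7.35 and 6.36 CPM (difference 3.12 ± 0.26). EDARADD, an adaptor of the ectodysplasin receptor, fell by 2.56 on the log2 scale (± 0.14) in K562 and rose by 0.39 ± 0.13 in HEL. EGFL7, a secreted factor known from endothelium, fell from 340 and 306 CPM to 100, 80.0 and 89.0 CPM in K562 and rose from 114 and 104 CPM to 181 and 188 CPM in HEL (difference 2.61 ± 0.11). For EGFL7 the depletion reversed the order of the lines: K562 controls lay above HEL controls and K562 KO lay below HEL KD.

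Some genes moved the same way in both lines by very unequal amounts. IGFBP5, a binding protein of insulin-like growth factors, was at 0.871 and 0.880 CPM in K562 controls and 22.5, 21.2 and 20.8 CPM in the KO, and at 773 and 747 CPM in HEL controls and 821 and 805 CPM in the KD. The log2 change was 4.61 ± 0.15 in K562 and 0.10 ± 0.03 in HEL. ZNF827, a zinc finger protein, rose from 3 counts in all K562 controls to 661 in the KO, a ratio of 129 (95% counting interval from 43.8 to 625), and by 0.43 ± 0.13 in HEL. The zinc finger genes ZNF680 and ZNF724 fell in both lines and more in K562. ZNF680 was at 6.37 and 6.39 CPM in K562 controls and 0.401, 0.132 and 0.185 CPM in the KO, with a HEL change of -0.31 ± 0.11. ZNF724 was at 6.56 and 6.07 CPM against 0.356, 0.0990 and 0.0464 CPM in K562, with a HEL change of -0.82 ± 0.18, and its difference of 4.41 ± 0.41 ranged from 4.02 without KO 3 to 5.42 without KO 1.

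C17orf99, which rose more in HEL, started near the floor there. It was at 0.413 and 0 CPM in HEL controls and 8.43 and 7.63 CPM in the KD, and at 9.26 and 7.41 CPM in K562 controls and 13.5, 12.5 and 15.8 CPM in the KO. Its HEL ratio of 39.1 (95% counting interval from 16.5 to 122) rested on 5 control counts. Its difference of 4.51 ± 0.50 ranged from 3.53 without HEL control 2 to 9.54 without HEL control 1. RMND5A, a subunit of a ubiquitin ligase complex, fell from 178 and 185 CPM to 51.8 and 52.9 CPM in HEL, and from 111 and 117 CPM to 98.4, 102 and 101 CPM in K562 (difference -1.61 ± 0.08). ANP32E, a chaperone of the histone variant H2A.Z, fell by 1.65 on the log2 scale (± 0.04) in HEL and by 0.17 ± 0.07 in K562 (adjusted p = 0.0483), with a difference of -1.48 ± 0.09.

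Other genes passed the test in 1 line, and the difference between the lines was itself called. TEK, the angiopoietin receptor of endothelium and blood stem cells, was at 0 and 0.0927 CPM in K562 controls and 5.57, 6.04 and 5.52 CPM in the KO, and at 17.1 and 18.2 CPM against 20.5 and 19.0 CPM in HEL (HEL change 0.16 ± 0.10, adjusted p = 0.19). The K562 controls held 2 counts against 427, a ratio of 125 (95% counting interval from 34.3 to 1033), and the difference of -6.60 ± 0.43 ranged from -9.53 without K562 control 2 to -5.66 without K562 control 1. SYNE1, a giant protein of the nuclear envelope, had 5 control counts against 603 in K562 (ratio 70.4, from 30.0 to 218) and a HEL change of -0.14 ± 0.07 (adjusted p = 0.0739). Its difference of -6.19 ± 0.32 ranged from -7.40 without K562 control 2 to -5.51 without K562 control 1. CCNJL, a cyclin-like gene, had 6 against 628 (ratio 61.1, from 27.9 to 167) and a HEL change of 0.15 ± 0.16 (adjusted p = 0.422). In the other direction ZNF788P, ZNF91 and LOC441666 fell in K562 by 3.02 ± 0.14, 3.12 ± 0.21 and 2.85 ± 0.10 (log2, SE). ZNF91, a zinc finger repressor of retroelements, was at 6.10 and 6.63 CPM in K562 controls and 0.935, 0.594 and 0.696 CPM in the KO, and at 9.09 and 10.1 CPM against 8.84 and 7.54 CPM in HEL.

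In HEL alone, EVADR, a long non-coding RNA, rose from 1.07 and 0.980 CPM to 10.2 and 6.61 CPM, and its K562 libraries lay between 28.8 and 30.7 CPM with overlapping groups. ICAM3, an adhesion molecule of leukocytes, rose from 30.5 and 30.2 CPM to 92.6 and 99.3 CPM in HEL and had a K562 change of -0.20 ± 0.08 (adjusted p = 0.06). FAM210B, a mitochondrial protein that takes part in haem synthesis, rose from 33.4 and 32.5 CPM to 91.3 and 95.6 CPM in HEL, with a K562 change of -0.15 ± 0.06 (adjusted p = 0.0639). LTK, a receptor tyrosine kinase, fell by 1.70 on the log2 scale (± 0.18) in HEL with overlapping K562 groups. OSTF1 fell from 45.5 and 45.6 CPM to 13.4 and 14.0 CPM, and TERF2IP, a telomere protein of the shelterin complex, from 140 and 144 CPM to 45.3 and 46.7 CPM. The K562 changes of OSTF1 and TERF2IP were 0.05 ± 0.11 and 0.11 ± 0.06 (adjusted p = 0.721 and 0.153).

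Other genes changed the same way in both lines, and the difference between the lines was not called. This does not show equal amounts, and the 95% intervals of VIM and PLCH1 were wholly negative. VIM, the intermediate filament vimentin, was at 1409 and 1448 CPM in K562 controls and 702, 700 and 688 CPM in the KO, and at 1489 and 1490 CPM against 650 and 662 CPM in HEL. The log2 changes were -1.04 ± 0.05 and -1.18 ± 0.03, and the difference of -0.15 had a 95% interval from -0.28 to -0.02 (adjusted p = 0.0674). This difference passed the threshold in 7 of 23 alternatives and missed it in the rest. It passed without K562 KO 2 (-0.17), without K562 KO 3 (-0.19), with library sizes alone (-0.18), with a minimum count of 30 (-0.18), with only genes kept in each line (-0.16), with the replicate block (-0.16) and with limma voom (-0.15). ENC1, an actin-binding protein, rose by 1.10 ± 0.12 in K562 and 1.05 ± 0.09 in HEL (interval of the difference from -0.36 to 0.27). TCP11L2 rose by 1.23 ± 0.14 and 1.29 ± 0.18 (from -0.46 to 0.59) and PLCH1, a phospholipase C, by 1.34 ± 0.12 and 1.05 ± 0.05 (from -0.57 to -0.02).

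**Figure D3:**
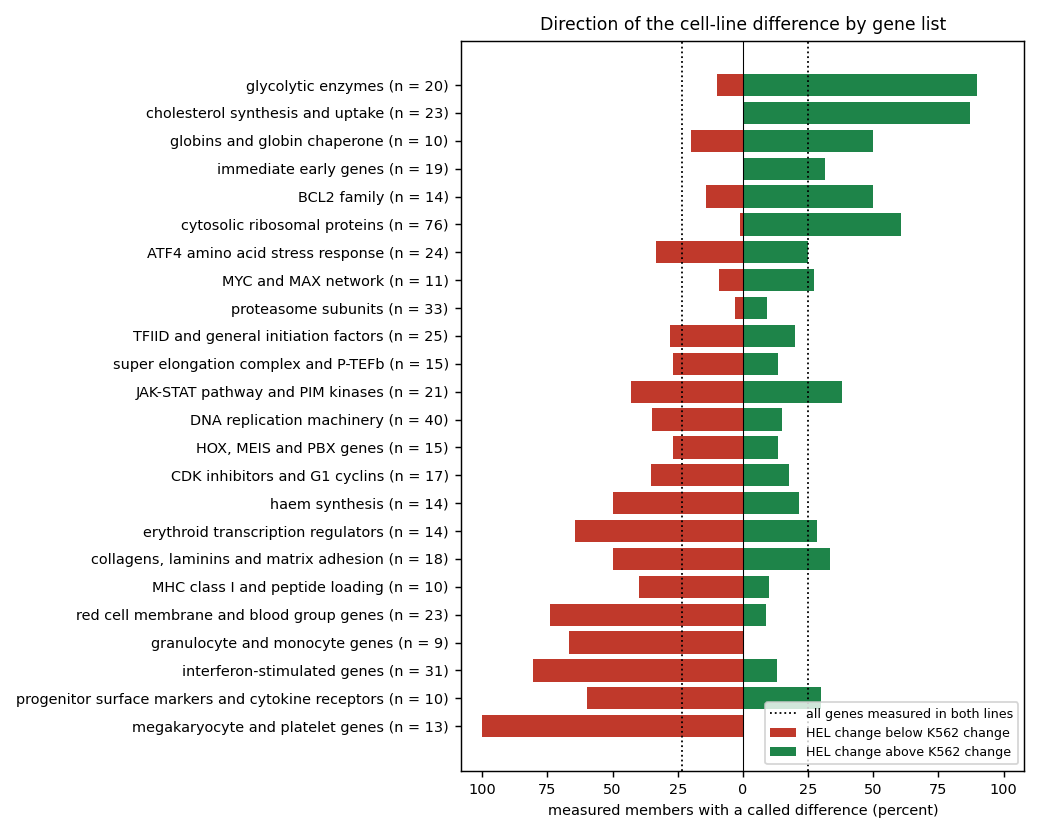
Share of the measured members of each gene list whose cell-line difference was called, to the right where the HEL change was above the K562 change and to the left where it was below. Dotted lines mark the shares over all genes measured in both lines, 25.1% and 23.3%. Lists with at least 9 measured members are shown, ordered by their median difference.

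Gene lists for blood cell fates, metabolism and signalling were described by their counts and medians, beside a background in which 48.4% of genes had a called difference and the median difference was 0.03. Megakaryocyte and platelet genes differed in one direction. All 13 members measured in both lines, of 30 listed, had a called difference with HEL below K562, and 9 of them were higher in K562 KO and lower in HEL KD. The median log2 change was 1.95 in K562 and -0.68 in HEL, with a median difference of -2.30. ITGA2B and ITGB3 encode the chains of the platelet fibrinogen receptor. ITGA2B was at 3.81 and 5.75 CPM in K562 controls and 24.9, 24.1 and 24.1 CPM in the KO, and at 1351 and 1307 CPM in HEL controls and 1231 and 1276 CPM in the KD. ITGB3 was at 3.39 and 3.98 CPM against 9.49, 8.64 and 8.44 CPM in K562 and at 952 and 953 CPM against 475 and 453 CPM in HEL. The rise in K562 thus left both far below HEL. RUNX1, a transcription factor required for blood formation, was at 78.0 and 86.2 CPM in K562 controls and 171, 175 and 182 CPM in the KO, and at 428 and 407 CPM against 354 and 359 CPM in HEL (difference -1.33 ± 0.08). ANGPT1 and P2RY1, a growth factor of platelets and an ADP receptor, rose in neither line: the HEL changes were -1.86 and -0.74 and the K562 changes -0.40 and -0.14. Of the 13 members, 4 passed the K562 filter through the KO alone, and all 9 of the others had a called difference with HEL below, at a median of -1.79. Of the 30 listed genes 25 were tested in all, and 12 of those were not measured in both lines.

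Interferon-stimulated genes, the antiviral programme downstream of STAT2 and IRF9, showed a similar split. Of 31 members measured in both lines (40 listed), 25 had HEL below and 4 had HEL above. In K562 25 rose and 4 fell, and in HEL 8 rose and 17 fell. The medians were 1.55 in K562 and -0.23 in HEL, with a median difference of -1.56. OAS3, a sensor of double-stranded RNA, was at 10.8 and 13.0 CPM in K562 controls and 64.0, 63.0 and 63.0 CPM in the KO, and at 52.0 and 48.1 CPM against 63.7 and 60.6 CPM in HEL (difference -2.10 ± 0.11). MX1, an antiviral GTPase, had no count in K562 controls and 59 in the KO, at least 5.74-fold higher against a floor of 3 counts per control library. With no control count, MX1 could pass the K562 filter only through the KO libraries, so this rise follows from the filter. The list was not uniform. IFITM3 and IFITM1, membrane proteins that block virus entry, went the other way. IFITM3 was at 107 CPM in each K562 control and 16.0, 14.2 and 14.0 CPM in the KO, and at 105 and 103 CPM against 95.1 and 94.6 CPM in HEL (difference 2.74 ± 0.09). IFITM1 fell from 451 and 473 CPM to 192, 195 and 181 CPM in K562 and rose by 0.19 ± 0.05 in HEL (difference 1.48 ± 0.08). BST2 and ISG15 also had HEL above K562. The regulator STAT2 differed less than the median member, by -0.60. Of the 31 members, 9 passed the K562 filter through the KO alone, and among the other 22 the difference was called with HEL below for 16 and above for 4, at a median of -0.79.

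Granulocyte and monocyte genes had 6 of 9 measured members with HEL below and none above (66.7% called, against 48.4% of all genes measured in both lines). PRG2, the eosinophil granule major basic protein, was at 9.03 and 9.36 CPM in K562 controls and 113, 105 and 97.3 CPM in the KO, and at 143 and 147 CPM in HEL controls and 38.2 and 36.6 CPM in the KD. The K562 KO level thus came near that of HEL controls while HEL KD fell below it (difference -5.47 ± 0.11, adjusted p = 2.19e-18). LYZ, the antibacterial enzyme lysozyme, rose from 34.9 and 32.0 CPM to 311, 315 and 285 CPM in K562, and its HEL libraries lay between 45.6 and 52.0 CPM with overlapping groups (HEL change 0.03 ± 0.07). SPI1, the myeloid transcription factor PU.1, rose by 0.95 ± 0.07 in K562 and fell by 0.29 on the log2 scale (± 0.06) in HEL. MS4A3, a membrane protein of granulocyte precursors, rose by 1.19 ± 0.13 in K562 and fell by 0.19 ± 0.03 in HEL.

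Receptors and progenitor markers had 6 of 10 members with HEL below and 3 above. Of these, 3 passed the K562 filter through the KO alone, and the other 7 had 3 below and 3 above, with a median difference of -0.01. KIT, the stem cell factor receptor, was at 15.2 and 16.1 CPM in K562 controls and 47.4, 50.5 and 46.0 CPM in the KO, and at 469 and 480 CPM against 216 and 221 CPM in HEL (difference -2.74 ± 0.09). PROCR, the protein C receptor, rose by 1.96 ± 0.11 in K562, with a HEL change of 0.03 ± 0.07. TFRC, the transferrin receptor that brings iron into red cell precursors, fell in K562 from 2203 and 2346 CPM to 1820, 1974 and 1848 CPM and rose in HEL from 1239 and 1231 CPM to 1649 and 1652 CPM (difference 0.69 ± 0.07). Among HOX, MEIS and PBX genes, 6 of 15 (40.0%) had a called difference, and 4 of the 11 that did not enter a filter through 1 group alone. MEIS1, which is also among the megakaryocyte genes, rose by 1.95 ± 0.15 in K562 and fell by 0.89 on the log2 scale (± 0.08) in HEL. PBX3, a partner of MEIS1, rose by 1.06 ± 0.16 and fell by 0.41 ± 0.08. HOXB2 had the reverse order (difference 0.62 ± 0.10).

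**Figure D4:**
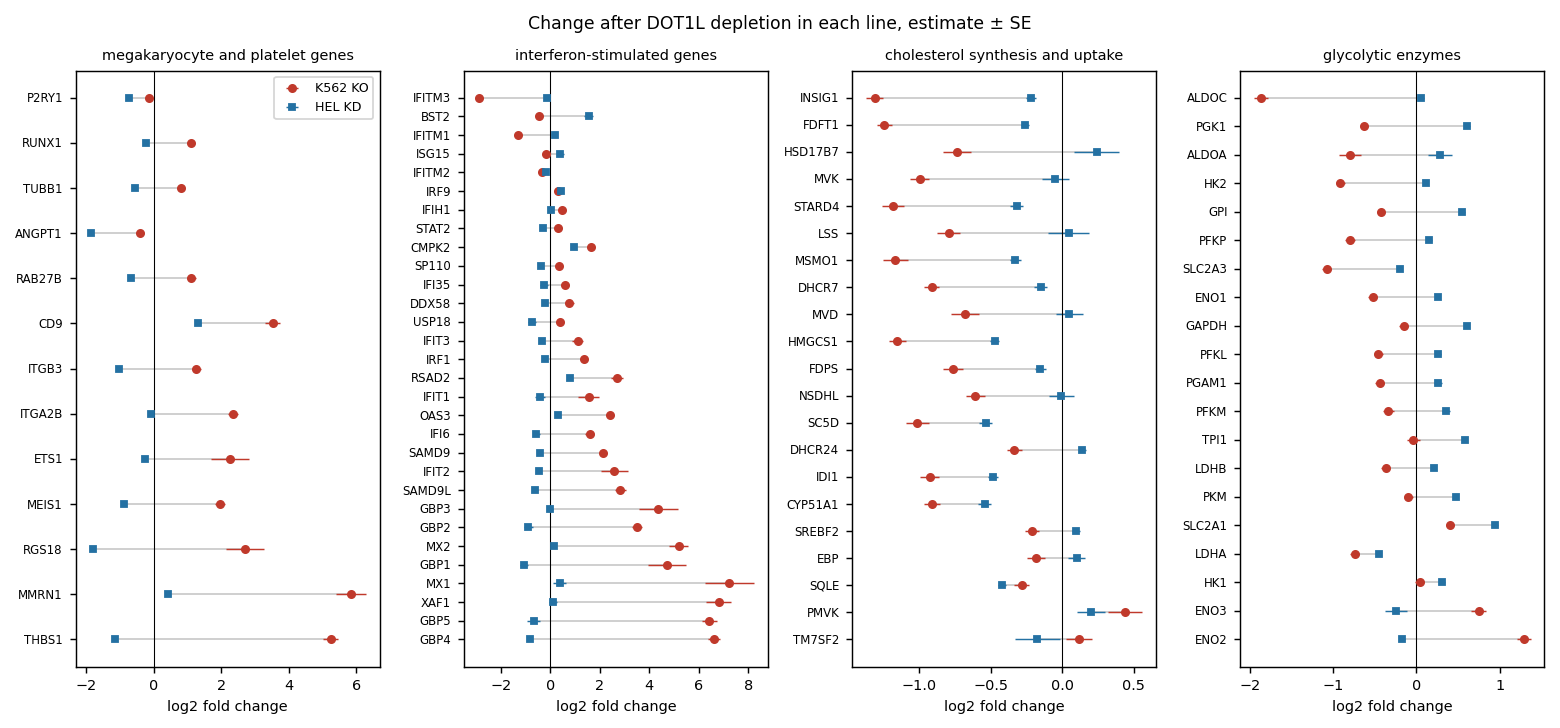
Log2 fold change ± SE in K562 KO (circles) and HEL KD (squares) for measured members of 4 lists, ordered by the difference between the lines. Megakaryocyte genes all have the K562 value to the right of the HEL value, most interferon-stimulated genes do, and most members in the cholesterol and glycolysis panels show the reverse.

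Cholesterol genes fell in K562 and much less in HEL. Of 23 members measured in both lines, which act in sterol synthesis and uptake, 20 had HEL above K562 and none below. Without K562 KO 3, or with library sizes alone, 1 was below. In K562 21 fell and 1 rose, and in HEL 12 fell and 3 rose. The median changes were -0.91 in K562 and -0.16 in HEL. FDFT1, squalene synthase, fell from 556 and 577 CPM to 235, 245 and 237 CPM in K562 and from 631 and 655 CPM to 529 and 546 CPM in HEL (difference 0.99 ± 0.07). INSIG1, which holds the sterol sensor SCAP in the endoplasmic reticulum, fell from 706 and 767 CPM to 279, 314 and 296 CPM in K562 and from 325 and 304 CPM to 267 and 273 CPM in HEL (difference 1.10 ± 0.08). No member had entered a filter through 1 group alone.

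Glycolytic enzymes and glucose transporters differed at all 20 members, 18 with HEL above K562 and 2 below. In K562 14 fell and 3 rose, and in HEL 14 rose and 3 fell, so that 10 members fell in K562 and rose in HEL. The medians were -0.43 in K562 and 0.26 in HEL, with a median difference of 0.71. PGK1, phosphoglycerate kinase, was at 521 and 526 CPM in K562 controls and 347, 342 and 328 CPM in the KO, and at 905 and 937 CPM in HEL controls and 1402 and 1412 CPM in the KD (difference 1.24 ± 0.07, adjusted p = 2.93e-12). GPI, glucose-6-phosphate isomerase, fell from 534 and 539 CPM to 401 CPM in each KO library and rose from 728 and 742 CPM to 1065 and 1091 CPM in HEL (difference 0.97 ± 0.06). ALDOC, an aldolase, fell from 175 and 153 CPM to 50.9, 42.7 and 41.5 CPM in K562 and had a HEL change of 0.06 ± 0.03 (adjusted p = 0.081). The exceptions were ENO2 and ENO3, the enolases best known from neurons and muscle. ENO2 rose from 30.0 and 26.4 CPM to 73.1, 67.4 and 66.7 CPM in K562 and fell from 227 and 222 CPM to 202 and 196 CPM in HEL (difference -1.46 ± 0.09). ENO1, the widely expressed enolase, went with the majority (difference 0.78).

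**Figure D5:**
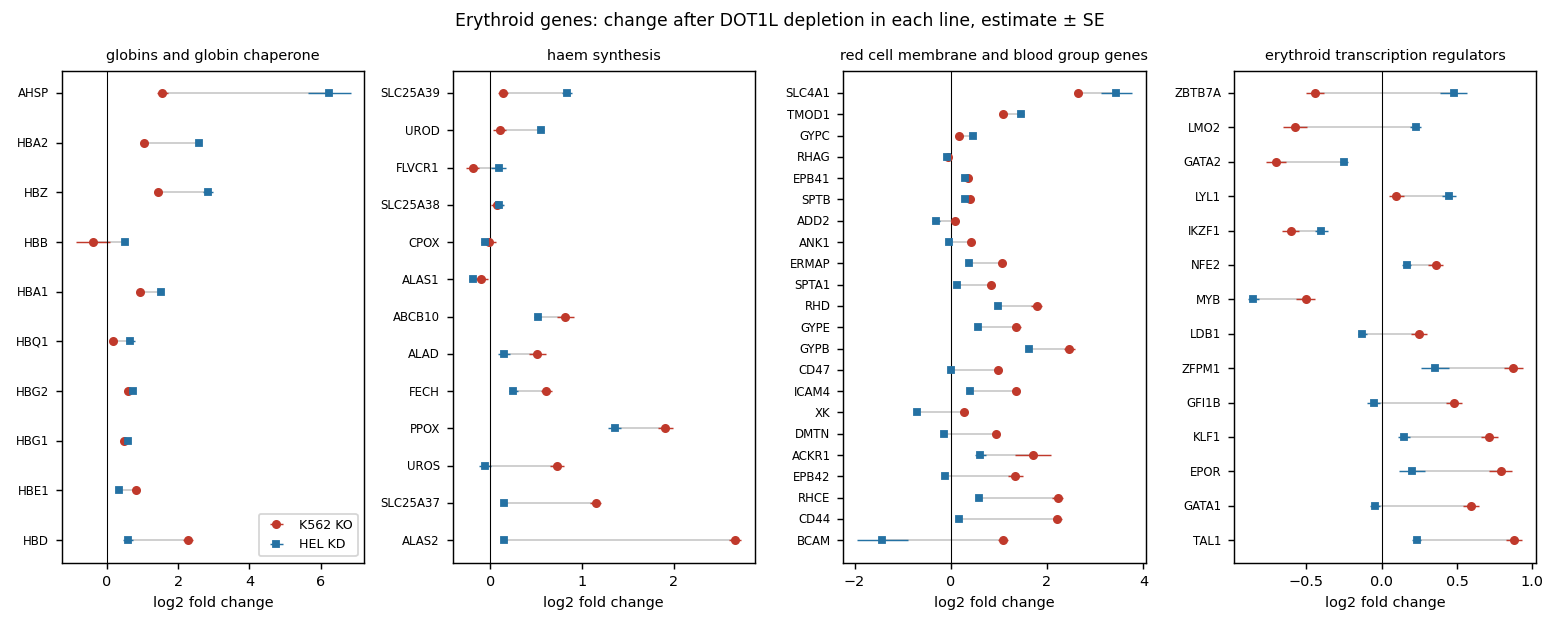
Log2 fold change ± SE in K562 KO (circles) and HEL KD (squares) for measured erythroid genes of 4 lists, ordered by the difference between the lines. Red cell membrane genes mostly have the K562 value to the right, whereas HBA2 and HBZ have the HEL value to the right, as does AHSP, which had 1 count in HEL controls.

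Many erythroid genes rose in both lines by unequal amounts. All 10 measured globin genes, with the alpha globin chaperone AHSP counted among them, rose in HEL and 8 rose in K562. The difference was called with HEL above for 5 and below for 2 (70.0% called, against 48.4% of all genes measured in both lines). AHSP passed the HEL filter through the KD alone, with 1 control count against 93, so its HEL rise follows from the filter. Among the 8 members that entered no filter through 1 group alone, the difference was called with HEL above for 4 and below for 2. HBZ, the embryonic zeta globin, was at 963 and 1058 CPM in K562 controls and 2648, 2775 and 2788 CPM in the KO, and at 4.79 and 3.59 CPM against 30.2 and 29.7 CPM in HEL. The log2 change was 1.44 ± 0.06 in K562 and, from a much lower level, 2.84 ± 0.13 in HEL (difference 1.40 ± 0.14). HBA2, an adult alpha globin, rose from 129 and 137 CPM to 251, 272 and 303 CPM in K562 and from 28.6 and 26.8 CPM to 163 and 170 CPM in HEL (difference 1.54 ± 0.11). HBD, the delta globin, had the larger rise in K562, from 2.80 and 4.26 CPM to 16.4, 18.1 and 16.6 CPM, against 7.77 and 8.08 CPM to 13.2 and 10.6 CPM in HEL (difference -1.69 ± 0.23). HBE1, the embryonic epsilon globin, rose by 0.80 ± 0.05 and 0.34 ± 0.03. HBA1 and HBA2, and HBG1 and HBG2, are near-identical copies whose reads can be split between them, so their single values are uncertain.

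Haem synthesis had 7 of 14 members with HEL below and 3 above (71.4% called), and its members moved in different lines. ALAS2, the erythroid enzyme of the first step, was at 51.8 and 57.6 CPM in K562 controls and 340, 353 and 350 CPM in the KO, and at 318 and 314 CPM against 348 and 352 CPM in HEL. K562 KO thus reached the HEL level (difference -2.52 ± 0.08, adjusted p = 7.11e-16). SLC25A37, the mitochondrial iron importer, rose by 1.15 ± 0.06 in K562 and 0.15 ± 0.03 in HEL, while SLC25A39, a mitochondrial glutathione carrier, rose by 0.13 ± 0.05 and 0.84 ± 0.05.

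Red cell membrane and blood group genes had 17 of 23 members with HEL below and 2 above, the latter 1 without HEL control 1. Among the 20 that entered no filter through 1 group alone the counts were 15 and 2. In K562 21 rose and none fell, and in HEL 15 rose and 6 fell, with medians of 1.08 and 0.30. CD44, which carries the Indian blood group, rose from 6.97 and 7.78 CPM to 34.4, 35.6 and 32.4 CPM in K562 and from 127 and 135 CPM to 150 and 147 CPM in HEL (difference -2.03 ± 0.11). DMTN, the actin-bundling protein dematin, rose by 0.93 ± 0.06 in K562 and fell by 0.15 on the log2 scale (± 0.04) in HEL. XK, which carries the Kx antigen, rose by 0.27 ± 0.07 and fell by 0.71 ± 0.03. RHCE rose by 2.22 ± 0.12 and 0.59 ± 0.04, though it shares reads with its close copy RHD, as GYPB and GYPE share theirs. Of the erythroid regulators, 13 of 14 had a called difference, 9 with HEL below and 4 above. GATA1 was at 276 and 261 CPM in K562 controls and 418, 401 and 397 CPM in the KO, and at 316 and 311 CPM against 296 and 312 CPM in HEL, where the groups overlapped (difference -0.64 ± 0.07). TAL1, a partner of GATA1, rose by 0.87 ± 0.05 in K562 and 0.23 ± 0.03 in HEL. ZBTB7A, a repressor of fetal globin, and LMO2, a bridging factor of the GATA1 complex, fell in K562 (-0.44 ± 0.06 and -0.57 ± 0.08) and rose in HEL (0.48 ± 0.09 and 0.22 ± 0.04).

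The JAK-STAT list divided, with 8 of 21 members with HEL above and 9 below (81.0% called, against 48.4% of all genes measured in both lines). Among the 20 that entered no filter through 1 group alone the counts were 8 and 8. STAT5A, the signal transducer of erythropoietin, was at 851 and 864 CPM in K562 controls and 339, 349 and 348 CPM in the KO, and its HEL libraries lay between 433 and 443 CPM (HEL change 0.03 ± 0.03). SH2B3, an adaptor that restrains JAK2, fell from 260 and 278 CPM to 139, 146 and 140 CPM in K562 and rose from 116 and 119 CPM to 181 and 175 CPM in HEL (difference 1.52 ± 0.08). PIM1, a kinase induced by STAT5, fell in both lines and more in HEL, from 1885 and 1873 CPM to 889 and 901 CPM, against 779 and 785 CPM to 658, 622 and 643 CPM in K562 (difference -0.78 ± 0.06). PIM2 rose by 1.01 ± 0.06 in K562 and 0.20 ± 0.03 in HEL.

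Matrix and adhesion genes had 9 of 18 members with HEL below and 6 above (83.3% called, against 48.4% of all genes measured in both lines). Among the 17 that entered no filter through 1 group alone the counts were 8 and 6. SPARC, a collagen-binding matrix protein, rose from 18.0 and 19.9 CPM to 164, 161 and 147 CPM in K562 and fell from 60.0 and 63.2 CPM to 52.1 and 52.0 CPM in HEL (difference -3.29 ± 0.10). LAMB1, a laminin chain, rose by 2.45 ± 0.07 in K562, with a HEL change of -0.08 ± 0.05 (adjusted p = 0.17). ITGA5, the alpha chain of the fibronectin receptor, fell by 0.55 on the log2 scale (± 0.05) in K562 and rose by 0.72 ± 0.04 in HEL. In the BCL2 family, 7 of 14 had HEL above and 2 below (64.3% called), the latter 1 without any single HEL library or without K562 control 2. BNIP3, which marks mitochondria for removal, fell from 56.2 and 56.5 CPM to 22.1, 21.0 and 20.9 CPM in K562 and rose from 320 and 339 CPM to 449 and 434 CPM in HEL (difference 1.83 ± 0.08). BMF, a death-promoting member, rose by 2.56 ± 0.16 in K562, with a HEL change of 0.17 ± 0.17 (adjusted p = 0.43). MHC class I genes had 4 of 10 members with HEL below and 1 above (3 and 1 of the 8 that entered no filter through 1 group alone). This is a share of 50.0% called, against 48.4% of all genes measured in both lines. The count of 4 was 6 with library sizes alone. B2M, the light chain, was among those with HEL below (difference -0.45 ± 0.10).

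Cytosolic ribosomal protein genes differed by small amounts in one direction. HEL was above K562 for 46 of 76 and below for 1 (61.8% called, against 48.4% of all genes measured in both lines), with a median difference of 0.23. In HEL 51 rose and 4 fell, and in K562 none rose and 17 fell. RPL13A was at 2185 and 2367 CPM in K562 controls and 1979, 2009 and 1908 CPM in the KO, and at 1893 and 1869 CPM against 2420 and 2461 CPM in HEL (difference 0.59 ± 0.07). The exception was RPL27A, which fell from 827 and 848 CPM to 498 and 495 CPM in HEL (difference -0.70 ± 0.09). The count of 46 fell to 27 without HEL control 1 and to 29 without HEL KD 2, and the count of 1 became 2 without K562 control 1.

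Lists close to transcription and the cell cycle stayed nearer the background. TFIID and other initiation factors had 12 of 25 members called (48.0%), 5 with HEL above and 7 below. TAF7, a TFIID subunit, fell from 125 and 124 CPM to 97.8, 109 and 95.4 CPM in K562 and rose from 35.6 and 39.0 CPM to 70.3 and 75.5 CPM in HEL (difference 1.27 ± 0.10). TAF1, the subunit on which TFIID is built, had the reverse order (0.41 ± 0.07 and -0.37 ± 0.05), and TAF4B fell by 1.11 ± 0.09 in K562 and by 0.28 ± 0.05 in HEL. The acetyltransferase KAT2B rose by 0.90 ± 0.06 and 0.14 ± 0.06. The super elongation complex had 6 of 15 called (40.0%), 2 with HEL above and 4 below. Without the 1 member that passed the K562 filter through the KO alone, 5 of 14 were called, 2 above and 3 below. For the super elongation complex, the count with HEL above was 0 or 1 without any single library other than K562 KO 1. It was 0 with library sizes alone and 1 with TMM factors taken within each line. The count below was 7 without K562 KO 3, and 6 and 5 under those scalings. CCNT1, the cyclin of P-TEFb, fell by 0.52 on the log2 scale (± 0.05) in HEL, with a K562 change of -0.04 ± 0.06 (adjusted p = 0.55). DNA replication genes had 20 of 40 called (50.0%), 6 above and 14 below. RPA2, a subunit of the single-strand binding protein, fell from 228 and 222 CPM to 129 and 128 CPM in HEL and rose by 0.19 ± 0.07 in K562, and the helicase subunit MCM5 fell by 0.40 ± 0.04 and rose by 0.23 ± 0.05. The replication count with HEL above fell from 6 to 3 without HEL control 1 or without HEL KD 2.

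CDK inhibitors and G1 cyclins had 9 of 17 called (52.9%). CDKN2C, an inhibitor of CDK4 and CDK6, fell from 65.8 and 65.0 CPM to 41.0, 41.4 and 40.8 CPM in K562 and rose from 90.5 and 91.5 CPM to 120 and 128 CPM in HEL (difference 1.12 ± 0.08), and CDK6 fell in both, by 0.94 ± 0.05 and 0.52 ± 0.04. The MYC network had 4 of 11 called (36.4%), or 2 without K562 control 1. MYC fell by 0.49 ± 0.05 in K562 and 0.19 ± 0.03 in HEL, and its antagonist MXI1 fell by 0.54 ± 0.08 in K562 and rose by 0.52 ± 0.06 in HEL. Immediate early genes had 6 of 19 called (31.6%, against 48.4% of all genes measured in both lines). All 6 had HEL above (25.1% of all genes), though 2 had HEL below without K562 KO 2. NR4A1, an orphan nuclear receptor, fell from 9.77 and 7.41 CPM to 2.36, 2.28 and 2.41 CPM in K562, and its HEL libraries lay between 10.1 and 13.5 CPM. The ATF4 amino acid response had 14 of 24 called (58.3%), 6 above and 8 below. All 14 were among the 23 that entered no filter through 1 group alone. PHGDH, the first enzyme of serine synthesis, fell from 83.8 and 84.9 CPM to 44.4 and 43.4 CPM in HEL, with a K562 change of 0.09 ± 0.06 (adjusted p = 0.22). Proteasome subunits had the lowest share, 4 of 33 called (12.1%), 3 with HEL above and 1 below. The count of 3 rose to 7 without K562 KO 1, and the count of 1 became 0 without HEL control 2 or HEL KD 2 and 2 without K562 KO 1 or KO 3. With library sizes alone the count of 1 was also 2.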

How the data were processed

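Polyadenylated RNA was sequenced from strand-specific libraries, per the labels' protocols. The authors deposited whole-number read counts per gene for HEL and fragment counts for K562, per the file headers. The submitters' processing notes name fastp 0.13.1, HISAT2 2.1.0 and featureCounts 1.6.1 among their tools without saying which step used which, and builds hg38 and hg19. Of the tables' genes 93.7% matched RefSeq of GRCh38.p14, whose positions they follow. Use of strand in counting is not given in the sources used here, so overlapping and antisense genes are uncertain.

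The tables were joined by gene and fitted together with edgeR 4.0.16 in R 4.3.3: filterByExpr (minimum count 10, minimum total 15), TMM scaling, 4 group means and the quasi-likelihood test, with Benjamini-Hochberg adjustment and a threshold of 0.05. Each line's change was tested in that line's libraries with the same scaling. The difference is the HEL change minus the K562 change, and its SE comes from the F statistic. The joint fit shared 1 spread per gene between the lines, although the coefficient of variation was 1.79% in HEL and 5.87% in K562. The SE and adjusted p of the difference thus do not carry the wider spread of K562 in full. For some genes this SE was smaller than that of the K562 change alone, as for SUCNR1 (0.24 against 0.27). The tests were also run on simulated data. The outcome is not given here, so it lends the calls no support. Nothing says that replicates were separate cultures, so p-values measure only the spread between these libraries.

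Genes were named by rule: those with the largest difference of each kind and at least 5 CPM, those changed most alike, and up to 4 of each list with the smallest adjusted p, and genes outside it that are named beside them, such as MX1, BST2, ENO3 and ANGPT1, were chosen after their values were seen. The comparison and the lists were chosen with earlier results of these data known. Alternatives tried were other scaling, filters, tools, size thresholds, halved HEL counts, ENL KO libraries added to the fit, a replicate block and leaving out each library. The other 61 samples and the ENL KO libraries are otherwise not analysed here. Results for some genes that the rule or the lists hold are not reported here, and list counts include them.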

Additional observations from a re-analysis of the deposited data

Results flagged for a closer look

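The difference between the lines passed the interaction test for each of the following genes, given as the HEL change minus the K562 change on the log2 scale. Apart from DOT1L, passing that test was a condition for naming these genes, so it adds no support. For those that passed a filter through 1 group alone, the change in that line follows from the filter. DOT1L differed by -1.10. Among genes higher in K562 KO and lower in HEL KD the differences were -7.54 for MGLL, -7.48 for SERPINE2, -7.44 for GBP4, -6.85 for SUCNR1, -6.64 for RASGRP3 and -6.39 for THBS1. Among genes with the reverse pattern they were 4.94 for PDGFB, 3.75 for SERPINI1, 3.37 for PPFIA4, 3.12 for TEAD3, 2.95 for EDARADD and 2.61 for EGFL7.

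Among genes changed the same way in both lines the differences were -6.46 for ZNF827, -4.51 for IGFBP5, 4.45 for ZNF680, 4.41 for ZNF724, 4.51 for C17orf99, -1.61 for RMND5A and -1.48 for ANP32E. Among genes called in K562 and not in HEL they were -6.60 for TEK, -6.19 for SYNE1, -5.71 for CCNJL, 2.89 for ZNF788P, 2.89 for ZNF91 and 2.50 for LOC441666. Among genes called in HEL and not in K562 they were 3.03 for EVADR, 1.86 for ICAM3, 1.66 for FAM210B, -1.85 for LTK, -1.79 for OSTF1 and -1.74 for TERF2IP.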

How the results depend on the processing

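Each of the 5980 called differences kept its sign in every alternative that tested the gene, called there or not (at least 5611 were tested in each). Those of ENC1 and TCP11L2, which were not called, crossed 0, to 0.10 and -0.19 at the extremes. The 5980 differences became 2134 when tested against a minimum of 0.5 (edgeR's glmTreat) and 1950 at an absolute difference of at least 1. Under the same 2 settings the 2905 genes with HEL above became 794 and 612, and the 2706 with HEL below became 1127 and 969. With DESeq2 the 7001 genes called in the HEL comparison alone became 4561 and the 819 lower in K562 and higher in HEL became 434. With at least 0.5 in each line the opposite genes numbered 148 and, for those higher in K562, 219 of 714. The other settings gave between 4887 and 6861 differences. With the replicate number as a replicate block there were 6822. The numbers are not known to pair libraries: same-numbered HEL libraries deviated with a correlation of -0.01, and those of K562 with 0.29 and 0.18. Few control counts limit the fitted size of the changes from near silence.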

Other observations

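A list of 31 genes known to be induced by low oxygen was drawn up after the glycolysis values had been seen, so its counts describe these libraries and test nothing. Of 29 members measured in both lines, 25 had HEL above K562 by a called difference (86.2%, against 25.1% of all genes). PDK3 was the 1 member with a called difference and HEL below (3.45%, against 23.3%). The 25 include ADM, at 1.31 CPM in K562 controls and 0.307 CPM in the KO. ADM passed the K562 filter through the controls alone, so its K562 fall follows from the filter. In K562 25 fell and 2 rose, and in HEL 16 rose and 8 fell, with medians of -0.64 and 0.11. Some members are also in the other lists, among them 6 of the glycolysis list. The 19 that are in none had 15 differences with HEL above and 1 below, at a median of 1.16. NDRG1 fell by 0.86 on the log2 scale in K562 and rose by 1.35 in HEL. VEGFA, the endothelial growth factor, fell by 1.40 in K562, with a HEL change of 0.03 (adjusted p = 0.632). P4HA1, a collagen prolyl hydroxylase, fell by 1.39 in K562 and by 0.24 in HEL, and EGLN1, the main oxygen-sensing hydroxylase, fell by 0.77 and rose by 0.38.

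The median difference varied by chromosome. It was 0.22 over 864 genes of chromosome 19 and 0.13 over 536 genes of chromosome 16, and -0.13 over 405 genes of chromosome 4 and -0.12 over 380 genes of chromosome X. On chromosome 19 it was called with HEL above for 324 genes and below for 95. Between replicate libraries of one group, the largest shift of the chromosome's median ratio from that of all genes was 0.07 for chromosome 19, 0.05 for 16, 0.08 for 4 and 0.02 for X. Across 11591 genes the difference had a rank correlation of -0.10 with exonic length, which is a description, since genes share their libraries. Between replicates of K562 KO that correlation reached -0.26. Genes named ZNF with a number, a group chosen after several had been seen among the largest falls in K562, had 139 of 352 called (39.5%, against 48.4% of all genes measured in both lines) and a median difference of 0.06. HEL was above for 91 (25.9%, against 25.1%) and below for 48 (13.6%, against 23.3%), and whether this differs from other genes was not tested.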
